A study of Mus musculus with 18 samples.

Results

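Surgery at postnatal day 10 (P10) is the non-regenerative arm of this study of the neonatal mouse heart, and the comparison described here is resection against sham surgery at that age. It rests on 6 of the 18 RNA-seq libraries of the series, taken by their labels: 3 labelled P10 resected +3 days and 3 labelled P10 sham +3 days, all collected at P13. Apical resection removes the tip of the ventricles. In the sham operation the chest was opened and the heart exposed and put back. All pups, sham included, were C57BL/6J and carried Tcf21-MerCreMer/+ and Rosa-mTmG/+, received tamoxifen at P1, and had the apical part of the ventricles dissociated and sorted for GFP+ cells. Tcf21-MerCreMer is a tamoxifen-dependent Cre driven by Tcf21, a transcription factor of resident cardiac fibroblasts, and Rosa-mTmG switches a cell and all its descendants from red to green fluorescence. The libraries therefore hold cells whose ancestors used Tcf21 at P1, whatever they became later, and they come from pups that survived the operation, which many P10 pups did not. Unoperated P10 baseline libraries (n = 3), collected 3 days earlier in life, are given beside the operated groups as levels only. The labels give neither sex nor the number of pups in a library, and they do not say that the 3 libraries of a group came from separate animals. Sex-linked reads, given below, set only sham replicate 3 apart from the others. The p-values thus measure the spread between these libraries, part or most of which may be technical.

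Resident cardiac fibroblasts build and turn over the collagen network of the heart. After injury they divide, take on contractile proteins, and secrete provisional matrix proteins such as tenascin C and thrombospondins before mature collagen is laid down and crosslinked. Entry into mitosis depends on a set of genes switched on together late in the cell cycle, among them mitotic kinesins, the proteins that attach chromosomes to the spindle, and the machinery that pinches the daughter cells apart.

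The 6 libraries held 14440363 to 21941305 counts, with 0.442% to 1.05% of them on mitochondrial genes. At 1 common depth of 10462737 counts, 16724 to 18618 genes had a read in the resected libraries and 15700 to 15897 in the sham libraries, so more genes were seen after resection in each library. Tcf21 stood at 296, 247 and 251 CPM, read counts relative to the scaled total of the library, in resected replicates 1 to 3 and at 231, 284 and 332 CPM in sham replicates 1 to 3, the order kept throughout, and Pdgfra, the receptor that marks cardiac fibroblasts, at 484, 613 and 517 against 878, 333 and 381 CPM. Both ranges overlapped. The library of sham replicate 3 had 586 reads of Xist, the RNA of the inactive X chromosome, and none of 4 Y-linked genes, whereas the other 5 had Y-linked reads and no Xist.

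Of 16170 genes tested with edgeR's quasi-likelihood test on all 18 libraries, 0 (0%) passed a Benjamini-Hochberg adjusted p of 0.05, and the smallest adjusted p was 0.626. At an unadjusted p under 0.05, 555 genes (3.43%) were higher and 106 (0.656%) lower after resection. DESeq2's Wald test, run on the same table, called 37 genes higher (0.23%) and 2 lower (0.0124%) of the 16102 it adjusted. The 3 resected values lay above all 3 sham values for 911 genes (5.63%) and below them for 492 (3.04%). These shares are the background against which each group of genes is read below. Across all genes tested, 8408 were higher and 7677 lower, and the median gene stood at 0.02 on the log2 scale.

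**Figure D1:**
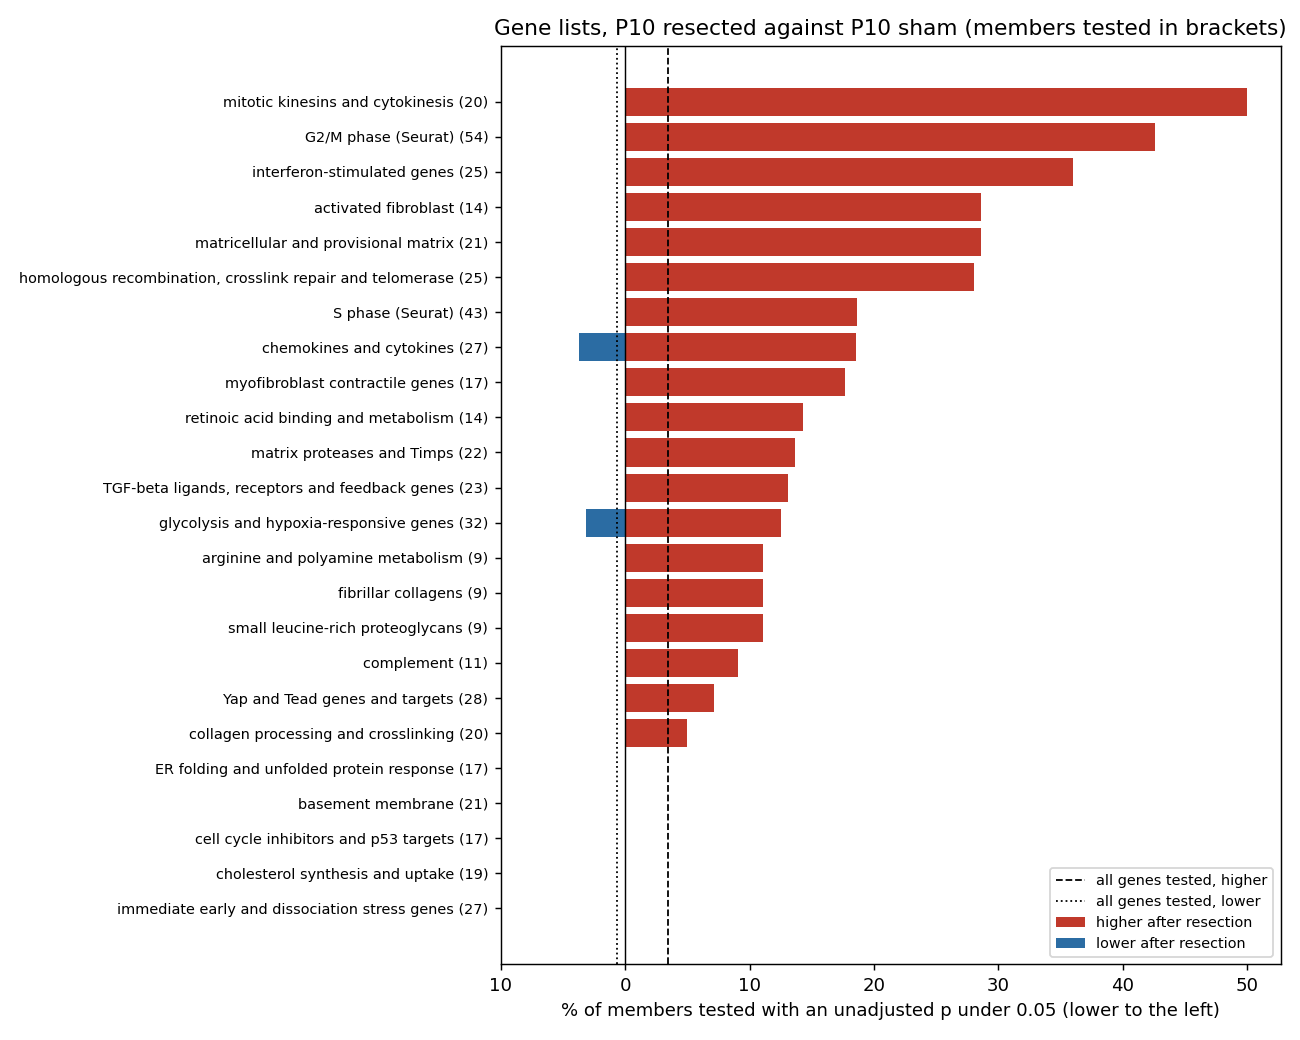
Percent of the tested members of each gene list with an unadjusted p under 0.05, higher after resection to the right and lower to the left, with the number tested in brackets and lines at the shares of all genes (3.43% higher and 0.656% lower). The mitotic kinesin list stands at 10 of 20 and the G2/M list at 23 of 54, and 5 lists have no member past this p in either direction.

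Genes of mitosis stood higher after resection. Of the 54 genes of the G2/M list, a set used to score cells in that phase of the cycle, 50 were higher and 4 lower, 23 were higher at an unadjusted p under 0.05 and none lower, and the median log2 fold change was 1.10. All 20 tested members of the list of mitotic kinesins and cytokinesis genes were higher, 10 of them at an unadjusted p under 0.05, with a median of 1.12. The lists share 9 genes, and together they hold 65, of which 61 were higher and 17 had resected values above every sham value. None of these genes passed the adjusted p of edgeR, and DESeq2 called 2 of the first list and 4 of the second.

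Kif20a, a kinesin that works at the cleavage site of dividing cells, had the smallest p of all genes. It was at 17.5, 41.8 and 15.2 CPM in the resected libraries and at 1.15, 6.92 and 3.35 CPM in the sham libraries. The groups did not overlap, with replicate 2 highest in both. The log2 fold change was 2.72 ± 0.52 (SE), a 6.58-fold difference, at an adjusted p of 0.626 by edgeR. In the unoperated P10 hearts Kif20a stood at 20.8, 16 and 18.1 CPM, so the sham libraries were the low group and the resected libraries spanned the baseline level. Over its exons, 29.3% of bases are shared with Cdc23 on the opposite strand, and reads were counted without regard to strand.

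Cenpe, the kinesin that carries chromosomes to the middle of the spindle (chr3:135212537-135273611, GRCm38), was at 6.21, 11.4 and 5.44 CPM after resection against 0.0499, 0 and 0.754 CPM after sham surgery, from 1, 0 and 16 reads in the sham libraries. Its resected values also lay within those of the baseline libraries (20.9, 4.76 and 5.03 CPM), and its log2 fold change was 4.71 ± 1.01 (adjusted p = 0.626, edgeR). Racgap1, part of the complex that organises the midzone of the spindle before cytokinesis, stood at 35.1, 66.2 and 13.9 against 3.84, 10.3 and 13 CPM, which left little space between resected replicate 3 and the highest sham value. Birc5, the survivin of the chromosomal passenger complex, was at 21.5, 33.9 and 10.3 against 4.39, 9.44 and 6.17 CPM (1.72 ± 0.42 on the log2 scale), again without overlap. Kif4, a chromosome-bound kinesin, was at 9.34, 9.46 and 7.45 against 0.799, 2.39 and 0.0471 CPM, with 15.1% of its exon bases shared with Pdzd11 on the opposite strand. Kif14, which acts in cytokinesis, had 22, 12 and 2 reads against 0, 1 and 0. Cks2, a small subunit that binds cyclin-dependent kinases, was 2.63-fold higher at 7.75, 8.45 and 5.44 against 2.5, 3.49 and 2.26 CPM. Pimreg, a mitotic regulator, overlapped between groups at 12.8, 42.9 and 10.8 against 3.39, 11.2 and 4.19 CPM.

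Genes that are often used to read proliferation, looked up after the values above were known, overlapped between the groups. Most of the genes above did not, but those were named for a small p. Mki67, the antigen Ki-67, was at 27.8, 36.1 and 9.32 CPM after resection and 16, 5.75 and 3.82 CPM after sham surgery, and Top2a, the topoisomerase that untangles chromosomes, at 40.6, 69.9 and 21 against 29.7, 19.8 and 7.54 CPM. Both overlapped, since resected replicate 3 lay below sham replicate 1. Cdk1, the kinase that drives entry into mitosis, was at 42.5, 51.5 and 16.2 against 10.5, 27.7 and 11.6 CPM and overlapped as well.

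Among the resected libraries, replicate 2 was the highest for most mitotic genes. It led in 43 of the 54 G2/M genes and in 17 of the 20 kinesin and cytokinesis genes. The mean level of the G2/M list, on a log2(CPM + 1) scale, was 4.33, 4.81 and 3.75 in the resected libraries, 3.34, 3.70 and 3.12 in the sham libraries and 4.77, 3.81 and 3.87 in the baseline libraries. On this scale each resected library was thus above each sham library for this list, resected replicate 3 by only a little. The summed CPM of the list overlapped, at 1755, 2287 and 1367 CPM after resection against 1373, 1574 and 1357 CPM after sham surgery. Without resected replicate 2, 10 G2/M genes were higher at an unadjusted p under 0.05 and the median was 0.66, and without sham replicate 3, 14 were, with a median of 0.86. For the kinesin list these counts were 5 and 6. In fits of the 6 and of the 9 P10 libraries, 15 and 14 G2/M genes and 6 and 7 of the kinesin list were at that p. Over the 65 genes, the mean of the sham libraries was below the mean of the baseline libraries for 57, while the resected mean was below baseline for 30. Of 16 macrophage markers, 12 also had their highest resected value in replicate 2, and their sums, 492, 1167 and 79.8 CPM after resection and 97.2, 400.3 and 322 CPM after sham surgery, were highest in replicate 2 of both groups, as the G2/M means were. The part of such cells in the mitotic genes was not tested.

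**Figure D2:**
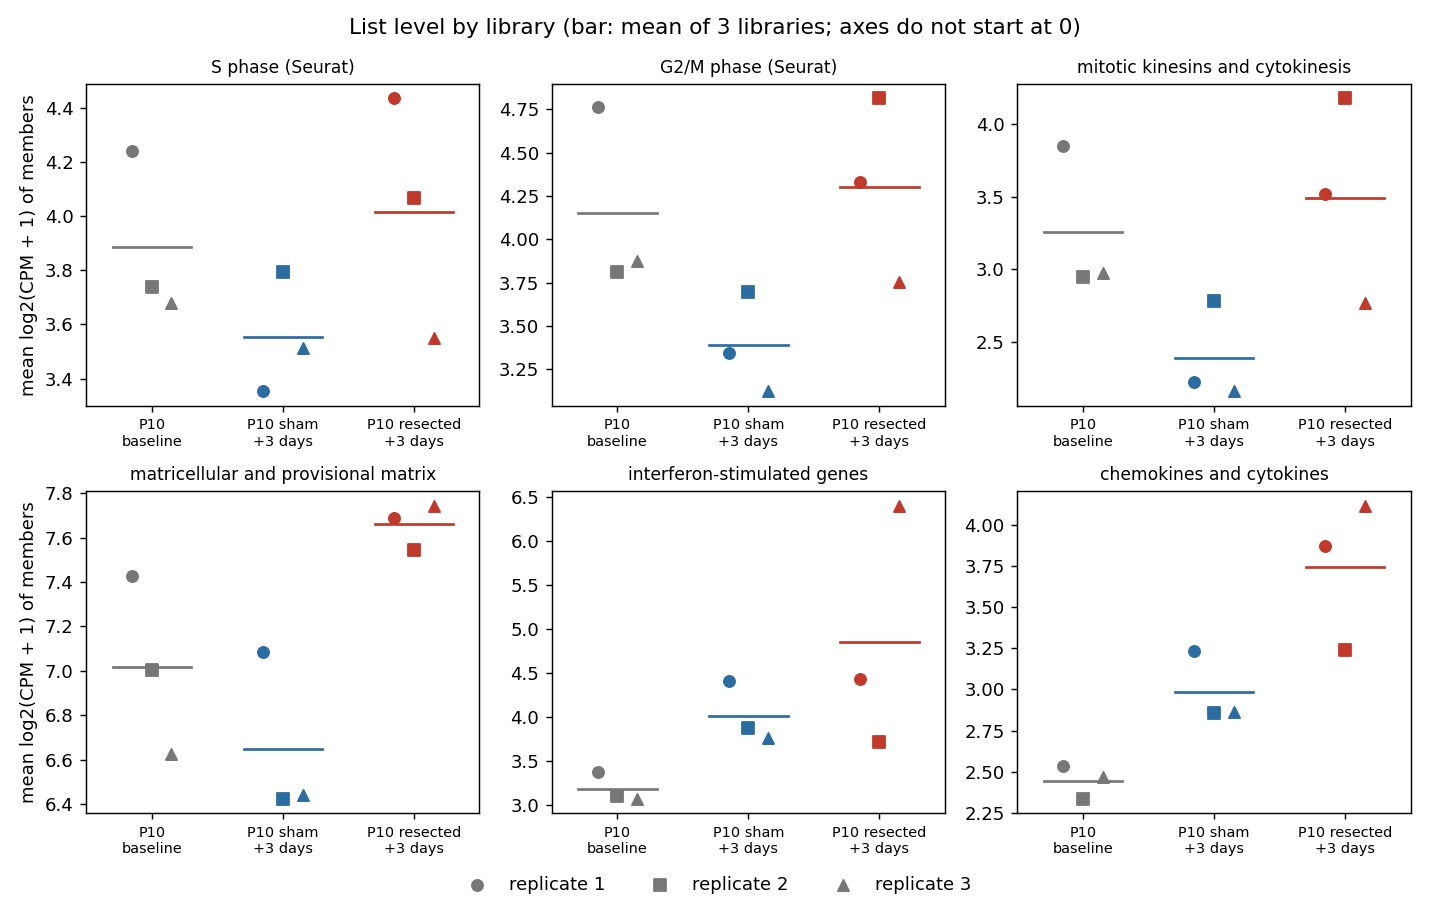
Mean log2(CPM + 1) over the members of 6 gene lists in each P10 library, by group, with the replicate number as the marker shape and a bar at the mean of the 3 libraries. The G2/M list separates the resected from the sham libraries with replicate 2 highest, the kinesin list does so but for resected replicate 3 (2.77) just under sham replicate 2 (2.78), the matricellular list separates them with little spread among the resected libraries, and the interferon list is high in resected replicate 3 alone.

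The promoters of the mitotic genes are shown because so many of these genes stood higher together. RefSeq windows from 250 bases before to 50 bases after the start (GRCm38.p6) matched 11504 of the 16170 tested genes by symbol, among them 47 of the 54 G2/M genes. Both strands were searched for patterns known from late cell cycle promoters: the CHR element, written here as TTTGAA or TTCGAA, and the CCAAT box bound by NF-Y. A CHR was present in 35 of the 47 G2/M windows (74.5%) and in 15 of 17 windows of the kinesin list (88.2%), against 1581 of all 11504 (13.7%) and 5 of 31 S phase windows (16.1%). CCAAT was present in 76.6% of the G2/M windows, 64.7% of the kinesin windows, 67.7% of the S phase windows and 38.3% of all. It was thus nearly as common in the S phase list as in the G2/M list. Windows follow for the 3 G2/M genes with the smallest p and for Ube2c and Psrc1, which are the first and the third of the next genes by p whose window holds a CHR. The second, Ndc80, is not printed, and its window held a CHR at base 30 after the start and no CCAAT. Capitals mark CHR and CCAAT letters on either strand, each sequence runs 5′ to 3′ on the gene's own strand, and in Ube2c a CCAAT and a reverse CCAAT overlap.
Cenpe, chr3:135212313-135212612, plus strand: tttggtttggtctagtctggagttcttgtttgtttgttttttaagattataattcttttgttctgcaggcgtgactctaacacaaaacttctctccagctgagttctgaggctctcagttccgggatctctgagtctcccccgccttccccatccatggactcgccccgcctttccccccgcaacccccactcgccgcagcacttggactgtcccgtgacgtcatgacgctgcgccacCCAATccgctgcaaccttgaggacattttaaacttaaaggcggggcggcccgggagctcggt
Birc5, chr11:117848987-117849286, plus strand: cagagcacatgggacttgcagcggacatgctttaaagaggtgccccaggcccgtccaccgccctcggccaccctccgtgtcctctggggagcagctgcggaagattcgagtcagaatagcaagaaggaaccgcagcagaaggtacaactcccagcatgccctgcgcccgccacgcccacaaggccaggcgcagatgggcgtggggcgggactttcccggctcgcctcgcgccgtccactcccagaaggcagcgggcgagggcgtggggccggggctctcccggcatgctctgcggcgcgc
Cks2, chr13:51644982-51645281, plus strand: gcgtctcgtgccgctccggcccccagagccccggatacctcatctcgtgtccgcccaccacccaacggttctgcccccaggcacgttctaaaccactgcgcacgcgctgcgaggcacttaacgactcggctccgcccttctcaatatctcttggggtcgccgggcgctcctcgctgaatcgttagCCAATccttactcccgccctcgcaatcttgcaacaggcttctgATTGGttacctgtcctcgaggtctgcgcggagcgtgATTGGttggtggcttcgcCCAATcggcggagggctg
Ube2c, chr2:164769679-164769978, plus strand: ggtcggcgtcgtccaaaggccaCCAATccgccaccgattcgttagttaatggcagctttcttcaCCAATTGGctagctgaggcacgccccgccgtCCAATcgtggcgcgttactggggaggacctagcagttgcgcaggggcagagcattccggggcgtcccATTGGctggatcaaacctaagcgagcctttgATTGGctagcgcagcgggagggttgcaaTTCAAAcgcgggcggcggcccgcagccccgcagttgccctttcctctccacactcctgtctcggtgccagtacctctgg
Psrc1, chr3:108383554-108383853, plus strand, 1 of its 2 entries: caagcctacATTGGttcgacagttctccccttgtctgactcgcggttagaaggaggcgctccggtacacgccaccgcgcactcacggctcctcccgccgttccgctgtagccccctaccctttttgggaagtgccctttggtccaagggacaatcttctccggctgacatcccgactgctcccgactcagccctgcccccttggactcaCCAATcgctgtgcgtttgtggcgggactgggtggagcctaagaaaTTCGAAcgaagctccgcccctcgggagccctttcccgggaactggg
The Cenpe window held 1 CCAAT, the Birc5 window neither pattern, and the Cks2 window 4 CCAAT boxes and no CHR. In Ube2c, which encodes the ubiquitin carrier that helps destroy cyclins at the end of mitosis, the CHR began 29 bases before the start, and in Psrc1, a microtubule protein of the spindle, at base 5 after it. Ube2c was at 27.6, 42.7 and 15.1 CPM after resection and 3.1, 16.5 and 5.18 CPM after sham surgery, and Psrc1 at 4.02, 8.45 and 2.72 against 1.95, 2.26 and 0.518 CPM.

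**Figure D3:**
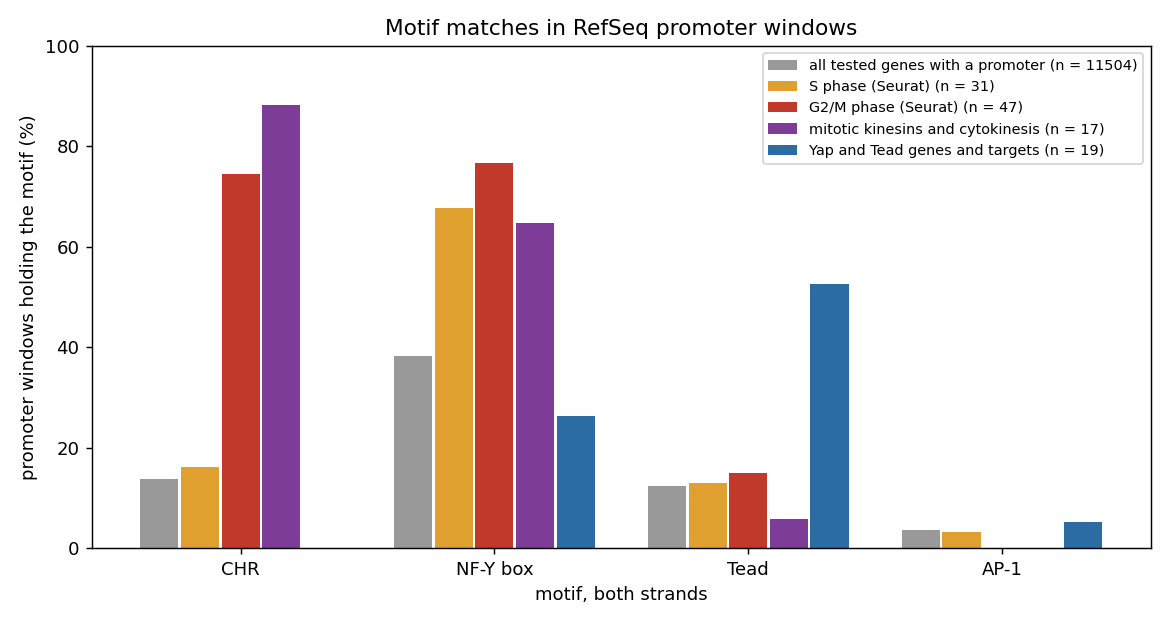
Percent of RefSeq promoter windows (250 bases before to 50 after the start) that hold each pattern on either strand, for all tested genes and 4 gene lists, with the number of windows in brackets. CHR stands at 74.5% and 88.2% in the G2/M and kinesin lists against 13.7% of all windows, and GGAATG at 52.6% in the Yap and Tead list against 12.4%.

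Most DNA synthesis genes were higher as well. Of 43 tested S phase genes, 35 were higher and 8 lower, 8 were higher at an unadjusted p under 0.05, and the median log2 fold change was 0.54. Here resected replicate 1, not replicate 2, was the highest of its group, for 34 of the 43 genes. Chaf1b, a subunit of the chromatin assembly factor, was at 27.5, 24.8 and 8.62 against 7.29, 13.4 and 5.56 CPM, and Mcm6, part of the replicative helicase, at 158, 105 and 90.4 against 61.9, 93 and 69.8 CPM. Rrm2, a subunit of ribonucleotide reductase, was at 47, 39.5 and 16.7 against 20.6, 22 and 14 CPM. In these 3 genes resected replicate 3 fell among the sham values. Cenpu, a centromere protein on the same list, did not overlap, at 2.68, 2.67 and 2.33 against 0.15, 0.0646 and 0.848 CPM, with 26.7% of its exon bases shared with Primpol on the opposite strand. The count of 8 fell to 1 without resected replicate 1 and to 5 without sham replicate 1, and reached 13 without resected replicate 3, and the median fell to 0.21 without resected replicate 1 and to 0.32 without sham replicate 3. In fits of the 6 and of the 9 P10 libraries 3 and 2 genes were at that p.

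Of 17 tested inhibitors of the cycle and p53 targets, from 18 listed, 8 were higher and 9 lower, none at an unadjusted p under 0.05. Cdkn1a, the p21 inhibitor that p53 switches on, was at 101, 122 and 156 against 128, 78.6 and 82.7 CPM, and Cdkn1c, the p57 inhibitor, at 91.4, 158 and 149 against 144, 193 and 217 CPM. Both overlapped.

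Genes of homologous recombination, crosslink repair and telomerase numbered 25, with 15 higher and 10 lower, 7 higher at an unadjusted p under 0.05 and a median log2 fold change of 0.62. Most of the 7 were counted in few reads. Pif1, a DNA helicase, had 24, 53 and 31 reads in the resected libraries and 0, 0 and 5 in the sham libraries. Tert, the catalytic subunit of telomerase, had 70, 100 and 7 against 0, 0 and 1 reads. Parpbp, which restrains recombination during replication, had 18, 52 and 2 reads after resection and none after sham surgery. Ercc4, a subunit of a structure-specific endonuclease, was well counted and did not overlap, at 23.6, 22.7 and 28.5 against 13.3, 12.1 and 14 CPM, a log2 fold change of 0.93 ± 0.26. Leaving out 1 library at a time left 5 to 9 of these genes at an unadjusted p under 0.05, but moved the median from 0.25, without sham replicate 3, to 1.41, without sham replicate 2. In the fit of the 6 libraries alone 2 were at that p and the median was 0.20.

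**Figure D4:**
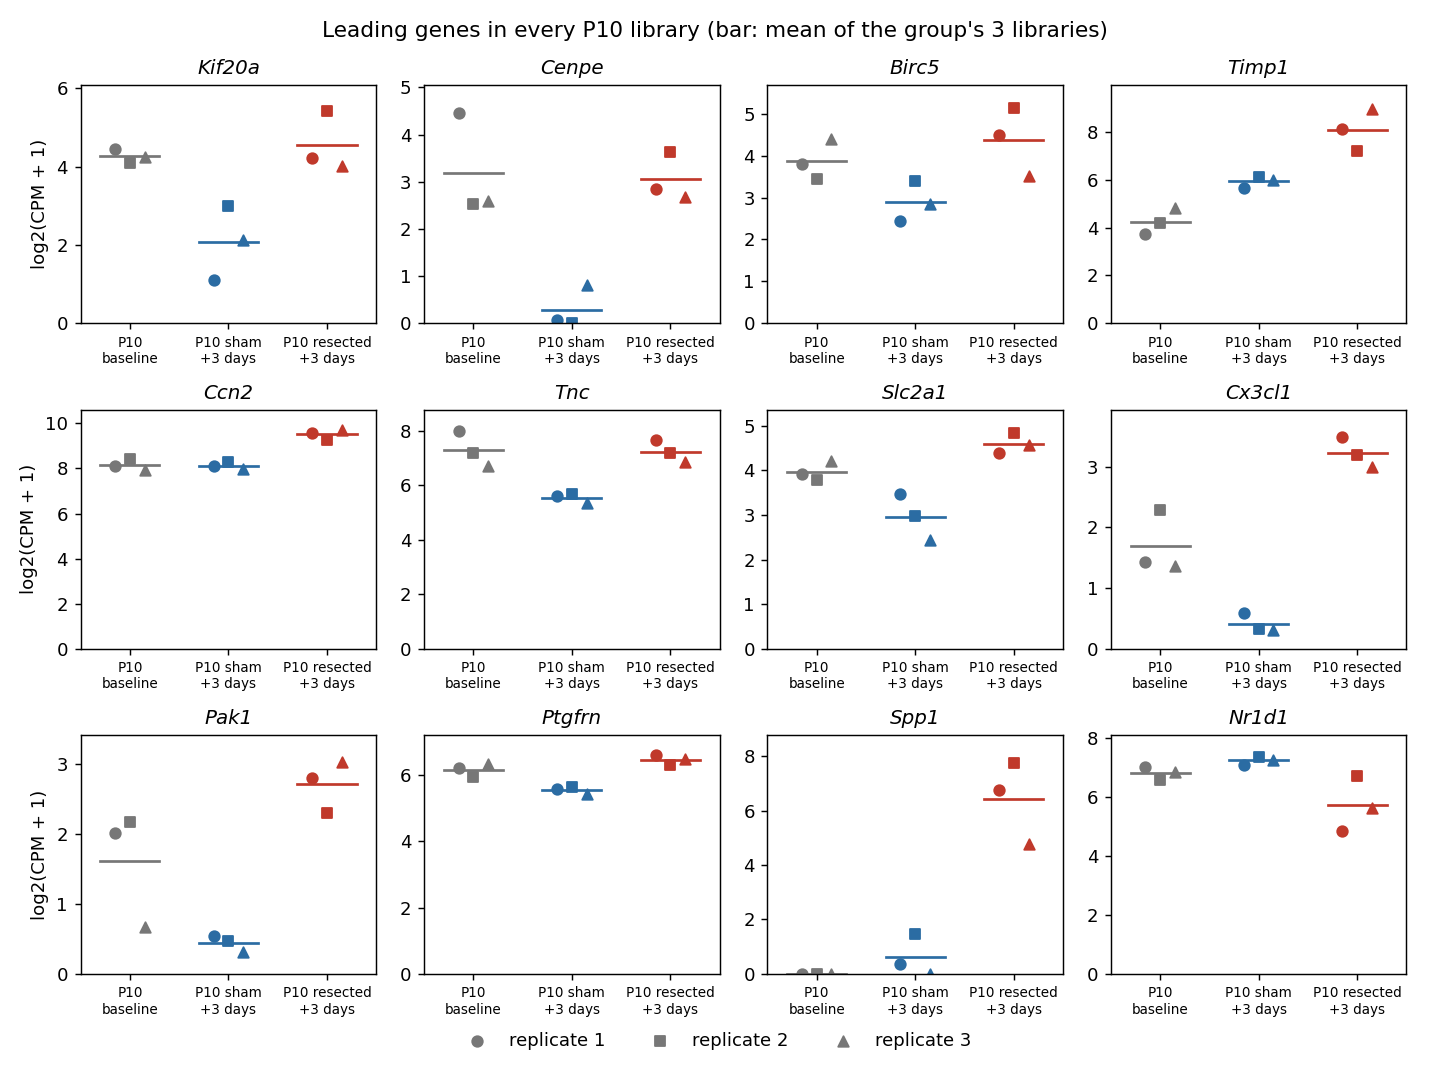
Level of 12 named genes on a log2(CPM + 1) scale in the 9 P10 libraries, by group, with the replicate number as the marker shape and a bar at the group's mean. In 11 panels the resected libraries lie above every sham library and in the panel of Nr1d1 under them, and for Kif20a, Cenpe and Tnc the resected libraries are near the P10 baseline.

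Timp1, a secreted inhibitor of matrix metalloproteinases, was the second gene by p (chrX:20870166-20874735). It was at 272, 146 and 493 CPM in the resected libraries against 49.5, 68.5 and 62.8 CPM in the sham libraries, with every resected value above every sham value and resected replicate 3 highest. The log2 fold change was 2.33 ± 0.45, 5.04-fold, at an adjusted p of 0.626 by edgeR, and DESeq2 called it. Baseline libraries held 12.4, 17.2 and 26.7 CPM, below both operated groups. Timp2 was at 2571, 3109 and 2957 against 3993, 3466 and 3231 CPM, lower without overlap at -0.31 on the log2 scale, and Timp3 at 369, 349.6 and 279.5 against 446, 294 and 293 CPM, a fold change of -0.05 on the log2 scale that turned positive in voom and without resected replicate 3 or sham replicate 1. Timp4 had 90, 6 and 127 reads after resection and 0, 7 and 0 after sham surgery. Among the 22 tested proteases and Timps, of 24 listed, 12 were higher and 10 lower, and Timp1, Timp4 and Mmp12 were the 3 at an unadjusted p under 0.05, a count that fell to 1 without resected replicate 3 or sham replicate 3. The median log2 fold change of 0.12 became 0.90 without sham replicate 1, where 19 of 23 were higher, and -0.07 without sham replicate 3. Mmp12, a macrophage elastase, had 35, 77 and 40 against 0, 6 and 0 reads. Mmp3, stromelysin, was high in resected replicate 3 alone, at 17, 11.1 and 136 against 17.4, 4.85 and 3.25 CPM.

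Matricellular and provisional matrix genes stood higher in each of the resected libraries, with a mean log2(CPM + 1) over the list of 7.69, 7.55 and 7.74 against 7.08, 6.42 and 6.44 in the sham libraries. Of 21 tested, from 22 listed, 17 were higher and 4 lower, and 6 were higher at an unadjusted p under 0.05. In 8 the resected values lay above every sham value and in 1 below, and the median log2 fold change was 0.71. With each library left out in turn, 5 to 7 were at that p and the median ran from 0.69 to 1.07. Ccn2, the connective tissue growth factor that fibroblasts make under tension and TGF-beta (chr10:24595442-24598683), was at 773, 622 and 842 against 273, 315 and 253 CPM, 2.66-fold higher (1.41 ± 0.34 on the log2 scale, adjusted p = 0.626, edgeR). The baseline libraries, at 275, 338 and 244 CPM, were at the level of the sham libraries. It shares 23.2% of its exon bases with Gm15270 on the opposite strand. Tnc, the tenascin C of healing tissue, was at 201, 144 and 114 against 48, 50.2 and 39.2 CPM, 3.34-fold higher, with the baseline libraries at 250.3, 146 and 103 CPM. Thbs4, a thrombospondin of the pressure-loaded heart, was at 59.1, 36.7 and 70.7 against 9.43, 3.75 and 11 CPM, 6.85-fold higher. None of the 3 overlapped between the groups.

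The 5 tested Ccn genes split. Ccn4 was at 30.7, 20.6 and 26.6 against 12, 12.6 and 12.1 CPM and Ccn5 at 29, 43.5 and 103 against 11.6, 15.9 and 22.1 CPM, both without overlap. Ccn1, the paralog nearest to Ccn2 in its response to tension, was at 2208, 1709 and 1651 against 1198, 1035 and 1182 CPM, a log2 fold change of 0.71 without overlap. Ccn3 went the other way, lower without overlap, at 439.5, 483 and 293 against 519.9, 498 and 506 CPM. Periostin, Postn, a marker of activated fibroblasts, was at 5764, 4585 and 4636 against 6691, 2944 and 4348 CPM and overlapped, and so did fibronectin, Fn1, at 1614, 2134 and 1615 against 1813, 811 and 939 CPM.

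Spp1, osteopontin, a secreted phosphoprotein made by macrophages and activated stroma, was at 108, 212 and 26.2 CPM after resection and 0.3, 1.75 and 0 CPM after sham surgery, and no read was found in the 3 baseline libraries (chr5:104435118-104441050, with 18.8% of exon bases shared with Gm42793 on the same strand). The log2 fold change was 7.47 ± 1.68 at an adjusted p of 0.626 by edgeR. It was highest in resected replicate 2 and lowest in resected replicate 3. The summed level of 16 macrophage markers, given above, followed the same order in the resected libraries, and Lyz2, the lysozyme of macrophages, was at 172, 589.6 and 26.6 against 34.4, 121 and 82.2 CPM. The macrophage sums overlapped between the groups, while the levels of Spp1 did not, and the part of such cells in it was not tested.

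Structural collagens stood slightly higher. All 9 tested fibrillar collagens were higher, by a median of 0.47 on the log2 scale, and 1 of them, Col24a1, had an unadjusted p under 0.05, at 5.61, 3.68 and 4.27 against 2.1, 1.49 and 1.04 CPM. The abundant chain Col1a2 was at 11765, 14955 and 12863 against 10678, 8298 and 9571 CPM, without overlap and 1.39-fold higher, and Col1a1 at 10909, 14675 and 9380 against 8808, 5854 and 9085 CPM, also without overlap. Col3a1 overlapped, at 40168, 58408 and 53546 against 46909, 34487 and 40615 CPM. The count of 1 at that p was 4 without sham replicate 1 and 6 with voom. Of 20 genes of collagen processing and crosslinking, 18 were higher, by a median of 0.13. Without resected replicate 3, 12 were higher by a median of 0.06, and with voom 13 by a median of 0.04. The single one at an unadjusted p under 0.05 was Tgm2, a crosslinking transglutaminase, at 51.2, 89.6 and 66.3 against 22.9, 28 and 28.7 CPM, with 21.8% of exon bases shared with Gm20412 on the opposite strand. Basement membrane genes numbered 13 higher and 8 lower of 21 tested, from 22 listed, none at an unadjusted p under 0.05, and without sham replicate 1, where all 22 were tested, 19 were higher. Of 9 tested small leucine-rich proteoglycans, from 10 listed, 3 were higher and 6 lower (7 higher without sham replicate 1), and Bgn, biglycan, was the 1 at that p, at 2448, 2384 and 3046 against 1861, 1838 and 1553 CPM.

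Contractile genes of the myofibroblast were higher for 12 of 17, 3 of them at an unadjusted p under 0.05, with a median of 0.19. Left out 1 at a time, each library brought that count of 3 to between 0, without resected replicate 1, and 2. The median was 0.07 without resected replicate 1 and 0.39 without resected replicate 3. Resected replicate 1 was the highest of its group for 13 of the 17. Actn1, an actin crosslinker, was at 36.6, 34.5 and 19.7 against 13.3, 12.2 and 18.6 CPM, and Tagln, transgelin, at 12.1, 9.66 and 5.9 against 3.29, 4.27 and 4.85 CPM, with 67.9% of the exon bases of Tagln shared with Gm48529 on the opposite strand. Synpo2, an actin-bundling protein, was at 13.6, 12.1 and 10.4 against 7.99, 4.2 and 6.83 CPM. The defining gene of the myofibroblast, Acta2 or smooth muscle actin, overlapped, at 672, 655 and 383 against 247, 531 and 552 CPM. In the list of activated fibroblast genes, 13 of 14 were higher, with a median of 0.68, and 4 were at an unadjusted p under 0.05: Timp1, Tnc, Tagln and Ltbp2, 3 of which are counted in the lists above as well. Without resected replicate 1, 2 were.

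The TGF-beta pathway and the Yap and Tead pathway are both known to act on Ccn2. The share of their tested genes that were higher at an unadjusted p under 0.05 was 13.0% and 7.14%, against 3.43% of all genes. Of 23 tested TGF-beta ligands, receptors and feedback genes, 16 were higher and 3 of them at an unadjusted p under 0.05, with a median of 0.14. The count of 3 was 1 without resected replicate 1, resected replicate 2 or sham replicate 3, and the median was -0.04 without sham replicate 2 and 0.28 without sham replicate 1. Pmepa1, a feedback inhibitor that TGF-beta induces, was at 232, 231 and 216 against 127, 140.5 and 159 CPM. The ligand Tgfb1 was at 30.7, 37.5 and 18.9 against 17.8, 18.6 and 13.6 CPM. Neither overlapped. Ltbp2, a binding protein of the matrix fibres, was at 60, 88.2 and 29.6 against 41, 18.9 and 21 CPM and overlapped. Of 28 Yap and Tead genes and targets, 20 were higher, 2 at an unadjusted p under 0.05, with a median of 0.17, which ran from 0.08 without sham replicate 3 to 0.41 without sham replicate 1. The 2 were Ccn2 and Ankrd1, a muscle ankyrin repeat protein, at 13.7, 4.45 and 2.87 against 0.3, 2.07 and 2.92 CPM.

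Promoter windows of Ankrd1 and Ccn1, the 2 genes of the list with the smallest p that have an entry, are shown for the Tead pattern GGAATG, found on either strand in 10 of 19 windows of the list (52.6%) and in 12.4% of all 11504. AP-1 patterns, TGACTCA or TGAGTCA, were in 1 of the 19 windows and in 3.59% of all. Capitals mark GGAATG or its reverse, CATTCC, and no AP-1 pattern lies in either window.
Ankrd1, chr19:36119795-36120094, minus strand: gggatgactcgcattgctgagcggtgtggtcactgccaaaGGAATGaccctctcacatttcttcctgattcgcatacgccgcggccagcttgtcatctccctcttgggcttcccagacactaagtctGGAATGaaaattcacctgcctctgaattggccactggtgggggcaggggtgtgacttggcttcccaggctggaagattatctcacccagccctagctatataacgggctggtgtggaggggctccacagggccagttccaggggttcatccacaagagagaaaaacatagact
Ccn1, chr3:145649936-145650235, minus strand: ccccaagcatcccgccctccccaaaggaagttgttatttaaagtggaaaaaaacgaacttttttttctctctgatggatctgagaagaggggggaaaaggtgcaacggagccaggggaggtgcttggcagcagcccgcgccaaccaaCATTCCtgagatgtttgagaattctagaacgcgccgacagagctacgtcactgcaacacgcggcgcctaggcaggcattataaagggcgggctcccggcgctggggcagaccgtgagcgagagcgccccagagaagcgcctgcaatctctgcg
In Ankrd1 the patterns began 210 and 123 bases before the start, and in Ccn1 103 bases before it.

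Cx3cl1, fractalkine, a chemokine that is also a membrane-bound adhesion molecule for monocytes (chr8:94772009-94782427), was at 10.2, 8.19 and 6.99 against 0.499, 0.259 and 0.236 CPM. The groups were far apart, with 205, 129 and 90 reads against 10, 4 and 5, and the baseline libraries, at 1.7, 3.85 and 1.58 CPM, lay between them. Its log2 fold change was 4.64 ± 1.04 (adjusted p = 0.626, edgeR), and DESeq2 called it. Of the 27 chemokines and cytokines tested, from 28 listed, 24 were higher and 3 lower, 5 higher and 1 lower at an unadjusted p under 0.05, with a median of 0.91. The 1 that was lower was Clcf1, a cytokine of the interleukin-6 family, at 2.33, 1.27 and 3.03 against 7.34, 4.85 and 8.3 CPM. Besides Cx3cl1 the higher ones were Cxcl12, Cxcl5, Cxcl9 and Ccl5. Cxcl12, the chemokine of stromal niches, was at 313, 184 and 577 against 202, 217 and 214 CPM and Cxcl9, which interferon induces, had 25, 0 and 46 reads after resection and none after sham surgery. Ccl5, a T cell chemokine, had 6, 8 and 5 reads after resection and none after sham surgery. Il6 spread as widely within groups as between them, at 65.6, 8.83 and 161 against 113, 7.89 and 4.29 CPM. Of this list, 17 genes had their highest resected value in replicate 3. The count of 5 moved with most libraries, to 8 without resected replicate 2, to 2 without resected replicate 3 and to 1 without sham replicate 2 or 3.

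Among the resected libraries, replicate 3 was the highest for most interferon-stimulated and complement genes. Of 25 interferon-stimulated genes, 23 were higher, 9 at an unadjusted p under 0.05, with a median of 1.46, but 24 of the 25 had their highest resected value in replicate 3. Isg15, a ubiquitin-like protein, was at 13.5, 10.1 and 134 against 8.99, 6.14 and 9.19 CPM, and Oasl2, of the antiviral oligoadenylate synthase family, at 56.3, 27.4 and 326 against 41, 28.6 and 25.7 CPM. Usp18, which removes Isg15 from its targets, was at 15.3, 16 and 127 against 17, 9.96 and 8.34 CPM. Without resected replicate 3 none of the 25 was higher at an unadjusted p under 0.05 and the median was -0.05, and without resected replicate 2 there were 14. Of 11 tested complement genes, from 14 listed, 8 were higher, with a median of 0.36, and 10 had their highest value among the resected libraries in replicate 3. Without that library 3 of the 11 were higher, none at an unadjusted p under 0.05, and the median was -0.49. The central component C3 had the same shape, and was the 1 at an unadjusted p under 0.05, at 216, 69.6 and 1167 against 135, 34.9 and 51.9 CPM. Ly6a, the surface protein Sca-1, was at 449, 238 and 2319 against 725, 587 and 514 CPM. Tmem176a, a membrane protein of myeloid cells that DESeq2 called, was at 59.9, 43.6 and 312 against 30.6, 33.4 and 33.1 CPM, without overlap. In the same library the 9 listed monocyte and neutrophil markers summed to 71.1 CPM, against 3.49 to 15.6 CPM in the other 5, and the 16 macrophage markers to 79.8 CPM, the lowest of the 6. What part these cells have in the interferon genes was not tested.

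Slc2a1, the glucose transporter GLUT1 (chr4:119108711-119137983), was at 19.9, 27.6 and 22.8 against 10, 6.92 and 4.38 CPM, without overlap and 3.29-fold higher (1.72 ± 0.39 on the log2 scale, adjusted p = 0.626, edgeR). The baseline libraries were at 14.1, 12.8 and 17.6 CPM. Of 32 genes of glycolysis and hypoxia, 25 were higher, 4 at an unadjusted p under 0.05, and 7 lower, 1 at that p, with a median of 0.25. The lactate transporter Slc16a3 was at 36.9, 41 and 51.7 against 17.8, 24.5 and 24.2 CPM, and Hk2, the hexokinase that traps glucose in the cell, at 16.5, 11.5 and 21.6 against 4.94, 3.62 and 5.18 CPM, both without overlap. The 1 lower gene was Slc16a1, another lactate transporter, at 44.6, 43.6 and 37.3 against 53.5, 57.4 and 66.6 CPM. Pfkfb1, a regulator of glycolysis, had 39, 8 and 38 reads after resection and none after sham surgery.

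Retinoic acid genes were higher for 10 of 14 tested, from 15 listed, 2 at an unadjusted p under 0.05. That count was 1 without resected replicate 2 or sham replicate 1 and 3 without sham replicate 2. Dhrs3, which reduces retinal, was at 39, 64.7 and 52.2 against 16.6, 32.5 and 32 CPM, without overlap, and Crabp2, a carrier of retinoic acid to the nucleus, had 141, 28 and 17 reads against 0, 1 and 0. No member was past that p in the lists of cholesterol synthesis (10 of 19 tested, from 20 listed, higher), endoplasmic reticulum folding (12 of 17 higher) and immediate early and dissociation stress genes (22 of 27 tested, from 28 listed, higher, with a median of 0.22). Of the last list, 18 had their highest resected value in replicate 3, and the median ranged from 0.03 without sham replicate 2, where 15 were higher, to 0.98 without sham replicate 1, where 26 were higher and 4 at that p. With voom, 8 were at that p and the median was 0.78. Without sham replicate 1, 6 of the 17 endoplasmic reticulum folding genes were higher. Dusp1, an early phosphatase that tissue dissociation induces, was at 1204, 1080 and 1548 against 732, 973 and 806 CPM, without overlap.

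Pak1, Ptgfrn and Gnaz, from no list, also separated the groups in every library. Pak1, a kinase of the cytoskeleton downstream of Rac (chr7:97788541-97912381), was at 6.01, 3.94 and 7.14 against 0.449, 0.388 and 0.236 CPM, 15.7-fold higher, from 121, 62 and 92 reads against 9, 6 and 5. Ptgfrn, a membrane protein that associates with tetraspanins (chr3:101040232-101110278), had little spread within either group, at 97.2, 78 and 88.9 against 46.6, 49.1 and 41.9 CPM, a log2 fold change of 0.94 ± 0.22 (adjusted p = 0.626, edgeR). Gnaz, a G protein subunit, was at 8.89, 7.37 and 4.74 against 1.2, 1.94 and 1.13 CPM, and the baseline libraries were at 7.33, 9.68 and 7.59 CPM, level with the resected ones.

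Fewer genes were lower after resection at an unadjusted p under 0.05. None of the 10 leading ones was called by edgeR with the filter on low counts or by DESeq2, and 1, Nr1d1, was called by edgeR without that filter. Nr1d1, the nuclear receptor REV-ERB alpha of the circadian clock (chr11:98767932-98775333), was at 28, 104 and 48.6 CPM after resection against 136, 166 and 154 CPM after sham surgery, -1.33 ± 0.47 on the log2 scale (adjusted p = 1.00, edgeR), with resected replicate 2 nearest to the sham values. Armc9, a protein of the primary cilium (chr1:86154780-86278284), had the smallest p of the 10 and was at 16.8, 14.5 and 11 against 31.8, 17.7 and 47.5 CPM, where sham replicate 2 lay just above the resected values. Ndrg2, a stress-responsive growth regulator, was at 115, 129.7 and 159 against 187, 222 and 199 CPM, and Map3k3, a kinase upstream of the stress-activated pathways, at 114, 169 and 142 against 261, 200.3 and 195 CPM. Hbp1, a transcriptional repressor that slows the cell cycle, was at 87.8, 106 and 105 against 156, 161 and 127 CPM, with 24.6% of its exon bases shared with Cog5 on the opposite strand. Vezt, a protein of cell junctions, was at 13.8, 10.7 and 13.9 against 24.1, 25.8 and 19.1 CPM. Dnajc12, a cochaperone, was at 1.84, 0.762 and 1.09 against 3, 8.99 and 6.17 CPM, and Zfp956, a zinc finger protein, at 2.24, 6.1 and 1.94 against 25.7, 8.21 and 6.55 CPM with sham replicate 1 far above the other 2. Adal, an adenosine deaminase-like enzyme, was at 12.9, 15.2 and 14.9 against 37.1, 22.4 and 19.8 CPM, and Lrrn4cl, a membrane protein, at 128, 193 and 147 against 322, 234 and 238 CPM. For Lrrn4cl, Map3k3 and Adal too the highest sham value was that of replicate 1.

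**Figure D5:**
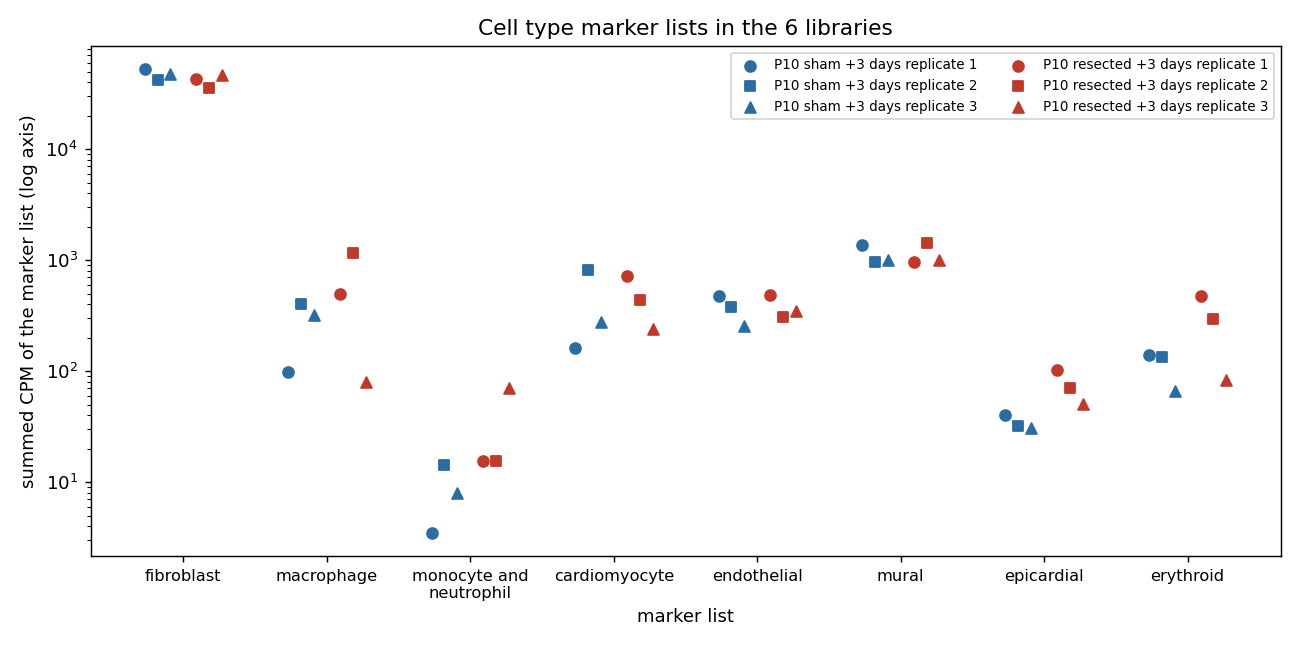
Summed CPM (log axis) of the markers of 8 cell types in the 3 sham and 3 resected libraries, with the replicate number as the marker shape. The fibroblast sums are the highest in every library, the epicardial sums of the resected libraries (50.1 to 101.9 CPM) lie above those of the sham libraries (30.8 to 40.0 CPM), and the macrophage, cardiomyocyte and erythroid sums overlap. Tbx18 alone makes up most of every epicardial sum except that of resected replicate 1.

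Markers of other cell types were present at low levels in these sorted cells and differed between libraries. In bulk RNA, more cells of a type and more RNA per cell cannot be told apart. The 15 fibroblast markers summed to 35531 to 46063 CPM after resection and 41859 to 52556 CPM after sham surgery, with 6 higher, 9 lower and none at an unadjusted p under 0.05. In 3 of the 15 every resected value lay below every sham value, as in 3.04% of all genes tested, and in none above. Epicardial markers were higher for 9 of 9, 3 at an unadjusted p under 0.05. Their sums were 101.9, 70.8 and 50.1 CPM against 40.0, 31.7 and 30.8 CPM, and Tbx18, a factor of epicardium and its descendants, was at 42.6, 59.7 and 46.1 against 40, 22.6 and 26.1 CPM. Tbx18 alone thus made up most of every epicardial sum except that of resected replicate 1. The keratin Krt8 had 45, 21 and 0 reads after resection and none after sham surgery. Without resected replicate 1 or any 1 of the sham libraries the count of 3 fell to 1. Endothelial markers were higher for 7 of 9, 1 at an unadjusted p under 0.05 (0 without resected replicate 1 or sham replicate 1 or 3, 2 without resected replicate 2 and 3 without sham replicate 2), and among the resected libraries replicate 1 was the highest for 8 of the 9, as it was for 8 of 9 epicardial, 11 of 12 cardiomyocyte and 4 of 5 erythroid markers. The endothelial sums were 481, 307 and 347 CPM against 474, 380 and 256 CPM and overlapped. Kdr, the endothelial receptor of VEGF, was at 68.1, 6.67 and 22.5 against 7.54, 4.85 and 2.83 CPM. Cardiomyocyte markers summed to 722, 436 and 239.5 CPM against 163, 815 and 279 CPM and overlapped, and 10 of 12 were higher, or 2 without resected replicate 1. Of 9 listed monocyte and neutrophil markers 6 were tested and all 6 were higher, 2 at an unadjusted p under 0.05, with a median of 2.23, and without resected replicate 3 none was at that p and the median was 1.16. Their sums did not overlap, at 15.6, 15.6 and 71.1 CPM against 3.49, 14.4 and 7.92 CPM. Of 9 tested mural markers 5 were higher, of 16 macrophage markers 14 and of 5 erythroid markers 5, and 0, 0 and 2 of them were at an unadjusted p under 0.05. Without resected replicate 2, 8 of the 16 macrophage markers and 3 of the 9 mural markers were higher, and the macrophage median went from 0.90 to 0.05. The erythroid count of 2 fell to 0 without resected replicate 1 or 2 or sham replicate 2 or 3 and to 1 without sham replicate 1, and was 4 without resected replicate 3. The red cell genes Hba-a1 and Hba-a2, like Hbb-bs and Hbb-bt, are near-identical copies between which reads are uncertain. Of the lymphocyte markers 4 of 9 and of the Schwann cell markers 2 of 5 had enough reads to test, and none was at that p.

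DESeq2's 37 higher genes were of different kinds. In 28 of them every resected library had reads, and in 27 of these, all but Wfdc18, the resected values also lay above all sham values. The 27 include Kif20a, Cenpe, Racgap1, Birc5, Kif4, Timp1, Ccn2, Slc2a1, Cx3cl1, Pak1, Ptgfrn, Ercc4 and Gnaz. Another 9 had reads in at most 2 of the 6 libraries. Polq, a DNA polymerase of end joining, had 19, 41 and 0 reads after resection, none after sham surgery, and 8.73, 0 and 0 CPM in the baseline libraries. Gpm6a, a neuronal membrane glycoprotein, had 166, 0 and 0 reads, and Zfp711 36, 0 and 0. The remaining 6 are L1cam, Fam83c, Hecw1, Gbp11, Gm47087 and Gm43984, none of which had more than 69 reads in a library of the comparison. Hecw1 and Gm43984 had only 2 and 3 reads over the 6 libraries together, beside 106 and 80 reads in baseline replicate 1. Of the 2 genes DESeq2 called lower, Xist was present in sham replicate 3 alone and D030068K23Rik, with 37, 0 and 0 reads, in sham replicate 1 alone.

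Several genes had few reads in each resected library and none in sham. Cdh3, P-cadherin of epithelia, had 63, 129 and 30 reads after resection, at least 86.1-fold higher than 3 counts over the summed sham libraries, which is 0.0529 CPM. Ppl, periplakin of cell junctions, had 41, 34 and 95 reads (at least 65.9-fold). Shroom2, an actin-binding protein, had 105, 7 and 4 reads, nearly all in replicate 1, and Wdfy4, a gene of antigen-presenting cells, had 89, 34 and 11. Sema5b and Scube3, a semaphorin and a secreted growth factor partner, had 39, 31 and 2 and 16, 35 and 12 reads, and both were also present in all 3 baseline libraries. Of the 37 genes, 18 had no read in any sham library.

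The same operation was done at P2, when the heart regenerates, in 3 resected and 3 sham libraries, which allows a test of whether the effect differs between ages. No gene passed: of the 16170 genes tested, 0 (0%) had an adjusted p under 0.05 for the difference, the smallest being 0.999963, and 465 had an unadjusted p under 0.05. DESeq2 called 24. For Kif20a the log2 fold change of resection was 2.72 at P10 and -0.03 at P2, a difference of 2.75 ± 0.70 (SE), and for Cenpe 4.71 and -0.23, a difference of 4.94 ± 1.26. For Timp1 the values were 2.33 and 0.91, a difference of 1.43 ± 0.62. Ccn2, Tnc and Thbs4 had effects of 1.07, 1.31 and 3.27 at P2, beside 1.41, 1.74 and 2.78 at P10, with differences of 0.34 ± 0.48, 0.43 ± 0.66 and -0.50 ± 1.04. Mean G2/M levels in the P2 libraries were 5.61 to 6.15 after resection and 5.68 to 6.15 after sham surgery on the log2(CPM + 1) scale, above all P10 libraries.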

How the data were processed

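RNA of the sorted GFP+ cells was amplified with a SMART-Seq kit for very low input, made into Nextera XT libraries and sequenced as single-end reads. The authors trimmed reads with fastp (0.20.0), aligned them with STAR (2.7.0f) to GRCm38.p6 and deposited unnormalised counts per gene symbol over GENCODE M22 exons, made with featureCounts (Subread 1.6.4) without regard to strand. Counting takes amplified reads, not molecules, so floors cover counting error only. The 6 libraries held 14440363 to 21941305 counts.

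From these counts, genes were kept by filterByExpr (minimum count 10, minimum total 15), which left 16170 of 28906 symbols with any count. CPM values, relative to TMM-scaled library totals, were computed, and edgeR's quasi-likelihood test (edgeR 4.0.16, R 4.3.3) was fitted with 1 mean for each of the 6 groups of 18 libraries, with a total of 17.3 degrees of freedom and Benjamini-Hochberg adjustment. The steps were tested on simulated data. The SE given with a log2 fold change was worked out from that fold change and the F value of the test, so it is not a separate estimate. Fold changes and CPM are relative to the library, so a gene can differ because others do. A gene with no sham read is given by its counts, or by a lower bound against 3 counts over the summed sham libraries. A list's median log2 fold change covers its tested members, and with such genes at their bound it changed only for cardiomyocyte markers, from 0.38 to 0.31. Alternatives were DESeq2 (1.42.0), limma voom (3.58.1) with sample weights, robust fitting, other scalings and filters, fewer libraries, the replicate number as a block, and each library left out. The S and G2/M lists came from Seurat (5.3.0). Positions are from GENCODE M21, 1 release before that of the counts, on GRCm38, and promoter windows from RefSeq on GRCm38.p6.

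The members and lists were chosen with earlier results of these data known. Genes were named by rule: the 10 higher and 10 lower genes of smallest p whose groups did not overlap and whose mean was at least 1 CPM, those DESeq2 called, up to 4 genes of each list by p, and paralogs of Timp1 and Ccn2. Some items this rule names are not reported here. Others were picked after their values were seen, namely Mki67, Top2a, Cdk1, Ube2c, Psrc1, Acta2, Postn, Fn1, Col1a1, Col3a1, Cxcl12, Il6, Slc16a1, and the genes of the closing section. Of 36 genes in the study's own table for this comparison, all were tested, 34 were higher and 2 lower, 33 were higher at an unadjusted p under 0.05, DESeq2 called 31 and edgeR 0. That list was chosen on these samples and is not independent evidence. Replicate numbers were not taken as pairs: deviations of same-numbered resected and sham libraries correlated at -0.12 to 0.17, and the labels tie no number to a litter or day.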

Additional observations from a re-analysis of the deposited data

How the results depend on the processing

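With edgeR, 0 genes were called under robust fitting, other scalings, a minimum count of 30 or fits of the 6 or 9 P10 libraries, and 0 by limma voom. DESeq2 called 39 and edgeR without a filter on low counts called 76. With the replicate number as a block, 1 gene, Spp1, was called in the fit of 18 libraries and 1 in that of 6, and no other call changed. Left out 1 at a time, the libraries gave 0 to 5 calls, the 5 (Bub1, Cdc25c, Iqgap3, Troap and Kif20a) without sham replicate 2. The 555 genes higher at an unadjusted p under 0.05 became 1241 with voom, 1147 without the filter, 366 at a minimum count of 30, 339 and 318 in fits of the 6 and the 9 P10 libraries, 311 with the replicate block in the 6 and 403 to 637 with a library left out. The 106 lower genes became 501 with voom, 222 without the filter and 64 to 138 with a library left out, 64 without resected replicate 3. The share of higher among both, 84.0%, was 71.2% with voom, 72.4% and 73.8% in the fits of 6 and 9 libraries, and 80.4% to 83.6% under other scalings. Without sham replicate 3, the library with Xist, 403 genes were higher and 103 lower. For the difference between ages DESeq2 called 24 genes, edgeR without the filter 30, the replicate block, added after the data were seen, 0, and libraries left out 0 to 4, the 4 without P10 sham replicate 2. The cause of these changes was not tested. Of 132 genes followed over 2165 values, 2090 kept direction and side of the threshold, 72 passed it, and 1 gene, Timp3, changed direction, at 0.14 with voom and between -0.15 and 0.18 with a library left out. Of 595 list medians, 499 moved by less than 1 SD of the sham libraries and 32 changed sign. With 3 libraries a group and a wide spread within groups, differences of single low-count genes rest on few reads.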

Other observations

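Of the acute-phase genes, 4 were looked up after the values were seen, and no list of such genes was counted. These 4 were high in resected replicate 3 and present in the other resected libraries too. Saa3, serum amyloid A3, was at 65.8, 9.72 and 919 CPM after resection against 2.85, 1.55 and 4.34 CPM after sham surgery, with no overlap and a log2 fold change of 6.82 ± 1.6 (SE, adjusted p = 0.626, edgeR). Hp, haptoglobin, was at 72.3, 17.5 and 435 against 8.69, 2.39 and 5.89 CPM, and Lcn2, the iron-binding lipocalin of innate defence, at 16.5, 4.07 and 157 against 0.948, 0.776 and 0 CPM. Neither overlapped. Serpina3n, a protease inhibitor of inflammation, overlapped at 224, 144 and 2217 against 333, 35.7 and 83.4 CPM. All 4 were called by edgeR when no filter on low counts was used, and none with it. In the baseline libraries Saa3 was at 0, 0.107 and 0 CPM and Hp at 0, 0.267 and 0 CPM, below both operated groups. The monocyte and neutrophil markers summed highest in resected replicate 3, at 71.1 CPM against 3.49 to 15.6 CPM in the other operated P10 libraries. The macrophage markers summed lowest there, at 79.8 CPM, and the part of such cells was not tested.

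Other clock genes were looked up because Nr1d1 was among the leading lower genes, also after values were seen. Tef, a clock-controlled factor, was at 111, 131 and 84.2 against 157, 189 and 135 CPM, lower without overlap (-0.56 ± 0.25 on the log2 scale). Dbp, of the same family, was at 25, 41.2 and 14.4 against 29.4, 65 and 69.6 CPM, and Nr1d2, the paralog of Nr1d1, at 55.7, 62.8 and 56.6 against 109, 57.3 and 57.9 CPM. Arntl, the clock activator, was at 67.6, 63.5 and 75.9 against 84.7, 50.2 and 51.3 CPM. These 3 overlapped, and the labels give no time of day of collection.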
